A study of Mus musculus with 18 samples.

Results

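Transcript levels were compared between mouse embryonic stem cells 2 days after transfection with a plasmid expressing an shRNA against Esrrb and cells 2 days after transfection with a plasmid expressing an shRNA against GFP. The members are the samples whose titles name Esrrb RNAi at day 2 (3) and those whose titles name control GFP RNAi at day 2 (3), which makes 6 of the 18 arrays of the study. All cells were E14, an established mouse embryonic stem cell line, kept on gelatin in serum medium with LIF, the cytokine that holds mouse embryonic stem cells undifferentiated. The plasmid was pSUPER.puro in both groups, introduced by lipofection, so both groups had passed through transfection and had made an shRNA. RNA of the other 12 arrays was taken at days 4 and 6 of the same design, and each day had control arrays of its own.

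Biotin-labelled cRNA was measured on BeadChips of the Illumina MouseWG-6 V1.1 design, which read each transcript through the brightness of beads that carry a probe. Per the labels, a group holds 3 biological replicates. Each of 3 BeadChips held 1 array of either day 2 group. A group always took the same slot, and an effect of the slot cannot be told apart from one of the shRNA. The knockdown arrays all name a single shRNA, and what it may do to transcripts other than Esrrb cannot be told apart from what the loss of the receptor does.

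Esrrb, estrogen-related receptor beta, is an orphan nuclear receptor that binds DNA at a short element that extends the AGGTCA core. In mouse embryonic stem cells it works beside Oct4, Sox2 and Nanog and activates genes of the naive state, the state that resembles the early epiblast before implantation. In the embryo it is needed in the trophoblast lineage, from which the placenta forms.

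The day 2 arrays had median raw intensities between 60.4 and 70.2, and 39.3% to 40.2% of their probes were detected. The lowest correlation between any of these 6 arrays was 0.985. The first principal component of the 6 arrays held 45.3% of their variance and placed all 3 Esrrb shRNA arrays on one side and all 3 GFP shRNA arrays on the other. All 8 marker genes of embryonic stem cells fixed for the check, Pou5f1, Sox2 and Nanog among them, were detected on all 6 arrays, and their summed level was 23292 to 25557 in Esrrb shRNA cells and 25272 to 26685 in GFP shRNA cells. Of these markers 0 were higher and 3 lower, namely Sox2 (-0.55), Zfp42 (-0.71) and Utf1 (-0.49). Of 16 fibroblast markers 9 could be tested, and Col1a1, Col1a2 and Col3a1, collagens that define fibroblasts, were among the 7 that could not, since no group of arrays detected them throughout. Of the 9 tested, 7 were detected on all 3 Esrrb shRNA arrays and 6 on all 3 GFP shRNA arrays. Their summed level was 1403 to 1597 in Esrrb shRNA cells and 1376 to 1649 in GFP shRNA cells. Fold changes divide the Esrrb shRNA level by the GFP shRNA level and are in log2 units, levels are log2 normalised intensities, and a gene is called where the Benjamini-Hochberg adjusted p of limma's moderated test over all 14533 genes tested was under 0.05. In RNA from whole cultures, fewer cells of a type and less RNA per cell cannot be told apart.

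Esrrb, the target, had levels of 11.12, 11.27 and 11.23 on the Esrrb shRNA arrays, against 13.39, 13.54 and 13.38 on the GFP shRNA arrays. The groups lay far apart, and the arrays within each differed little. Esrrb transcript stood at 21.3% of its control level (log2 fold change -2.23, SE 0.11, adjusted p = 4.36e-11, n = 3 per group). Another, dim probe for Esrrb gave -0.14 (SE 0.12, adjusted p = 0.520). The position of either probe in the transcript is not given in the sources used here.

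At day 2, 1765 genes were called with Esrrb included, 959 higher and 806 lower. They made up 12.1% of all genes tested, 6.60% higher and 5.55% lower, and these shares are the background for every gene group described here. The changes were mostly modest. At least 2-fold higher were 64 genes (0.440%) and at least 2-fold lower were 81 genes (0.557%). The median over all genes tested was 0.00. The 3 arrays of one group lay wholly above or below those of the other for 3570 genes (24.6%), among them 1701 of the called genes. The median SD over genes was 0.127 among the Esrrb shRNA arrays and 0.157 among the GFP shRNA arrays, and it ran from 0.0953 to 0.130 in the groups of days 4 and 6. A model of all 18 arrays shares 1 estimate of the spread between days. When the model held the 6 day 2 arrays alone it called 862 genes (5.93%), 437 higher (3.01%) and 425 lower (2.92%). Counts from that narrower fit are therefore given beside each gene group.

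**Figure D1:**
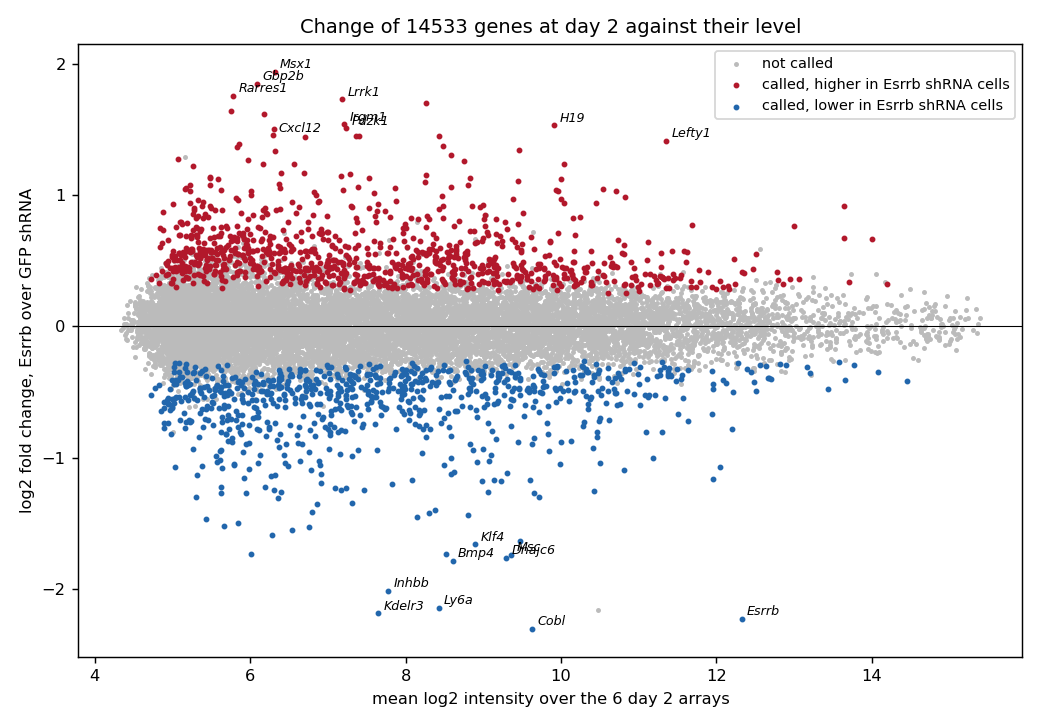
Change of each tested gene at day 2 (vertical axis, log2 fold change, Esrrb shRNA over GFP shRNA) against its mean log2 intensity on the 6 day 2 arrays (horizontal axis), with called genes coloured by direction. Falls of Cobl, Esrrb, Kdelr3, Ly6a and Inhbb exceed 2 log2 units, while no called rise does.

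Besides Esrrb, the genes named that fell furthest were Cobl, Kdelr3, Ly6a and Inhbb. The 25 largest falls by the naming rule lay between -2.31 and -1.27, and all 25 were also called in the day 2 arrays alone. Cobl, an actin nucleator that builds unbranched filaments, had 8.43, 8.54 and 8.44 in Esrrb shRNA cells, against 10.55, 10.85 and 10.93 in GFP shRNA cells. Its 3 knockdown arrays nearly coincided and lay below every control array, a 4.95-fold fall (log2 fold change -2.31, SE 0.11, adjusted p = 2.81e-11), which was as large as that of the targeted gene.

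Kdelr3, a receptor that returns escaped proteins of the endoplasmic reticulum from the Golgi, had 6.73, 6.34 and 6.59 in Esrrb shRNA cells and 8.78, 8.76 and 8.69 in GFP shRNA cells. The control arrays were nearly level, and no knockdown array came near them. The fall was 4.56-fold (log2 fold change -2.19, SE 0.09, adjusted p = 1.28e-11), and another probe on the same arrays gave -2.18 (SE 0.11). Ly6a, the glycolipid-anchored surface protein Sca-1, had 7.33, 7.44 and 7.29 in Esrrb shRNA cells and 9.48, 9.60 and 9.42 in GFP shRNA cells. Here too the groups were well apart, with a fall of 4.42-fold (-2.15, SE 0.13, adjusted p = 6.82e-10).

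Dnajc6, the gene of auxilin, which strips the coat from clathrin vesicles, had 8.45, 8.51 and 8.27 in Esrrb shRNA cells and 10.23, 10.21 and 10.08 in GFP shRNA cells. It fell by 1.76 (SE 0.10). Msc, a helix-loop-helix repressor known as musculin, had 8.47, 8.45 and 8.52 in Esrrb shRNA cells and 10.45, 10.12 and 10.10 in GFP shRNA cells. It fell by 1.74 (SE 0.11), with the highest control value on the first BeadChip. Edn1, the precursor of the peptide endothelin-1, had 5.13, 5.05 and 5.26 in Esrrb shRNA cells and 6.64, 6.96 and 7.03 in GFP shRNA cells. Its knockdown arrays were close to the lower end of the scale, and the fall of 1.73 (SE 0.12) was -1.03 without background correction.

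Klf4, a zinc finger factor that helps to hold the naive state, had 7.96, 8.19 and 8.03 in Esrrb shRNA cells and 9.73, 9.65 and 9.77 in GFP shRNA cells, with no overlap, and all 3 of its probes fell (-1.66, -1.14 and -1.31). Jam2, an adhesion molecule, fell by 1.63 on its brightest probe and was called on 4 of its 5 probes. The fifth, dim probe gave -0.33. St8sia1, the enzyme that makes ganglioside GD3, was at -1.59 (SE 0.12) and Epha4, an ephrin receptor, at -1.55 (SE 0.11). Gjc1, which encodes the gap junction protein connexin 45, was at -1.43 (SE 0.15), and Ntn1, the guidance cue netrin-1, at -1.31 (SE 0.13). Khdc3, a maternal-effect gene with a role in genome stability, was at -1.27 (SE 0.11).

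Klk1b26, a kallikrein-like peptidase gene, was not detected on any Esrrb shRNA array (4.72, 4.70 and 4.67) and had 6.11, 6.18 and 6.20 in GFP shRNA cells. With the knockdown arrays set to their detection floor it was at least 2.17-fold lower (adjusted p = 3.52e-08). The mouse kallikrein genes are a family of close copies, so the probe may read more than 1 of them. Second probes that did not pass were those of Ildr1, a receptor of tricellular junctions (-1.41 on the main probe, -0.02 on the dim one), and Smyd1, a muscle lysine methyltransferase (-1.40 and -0.23).

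**Figure D2:**
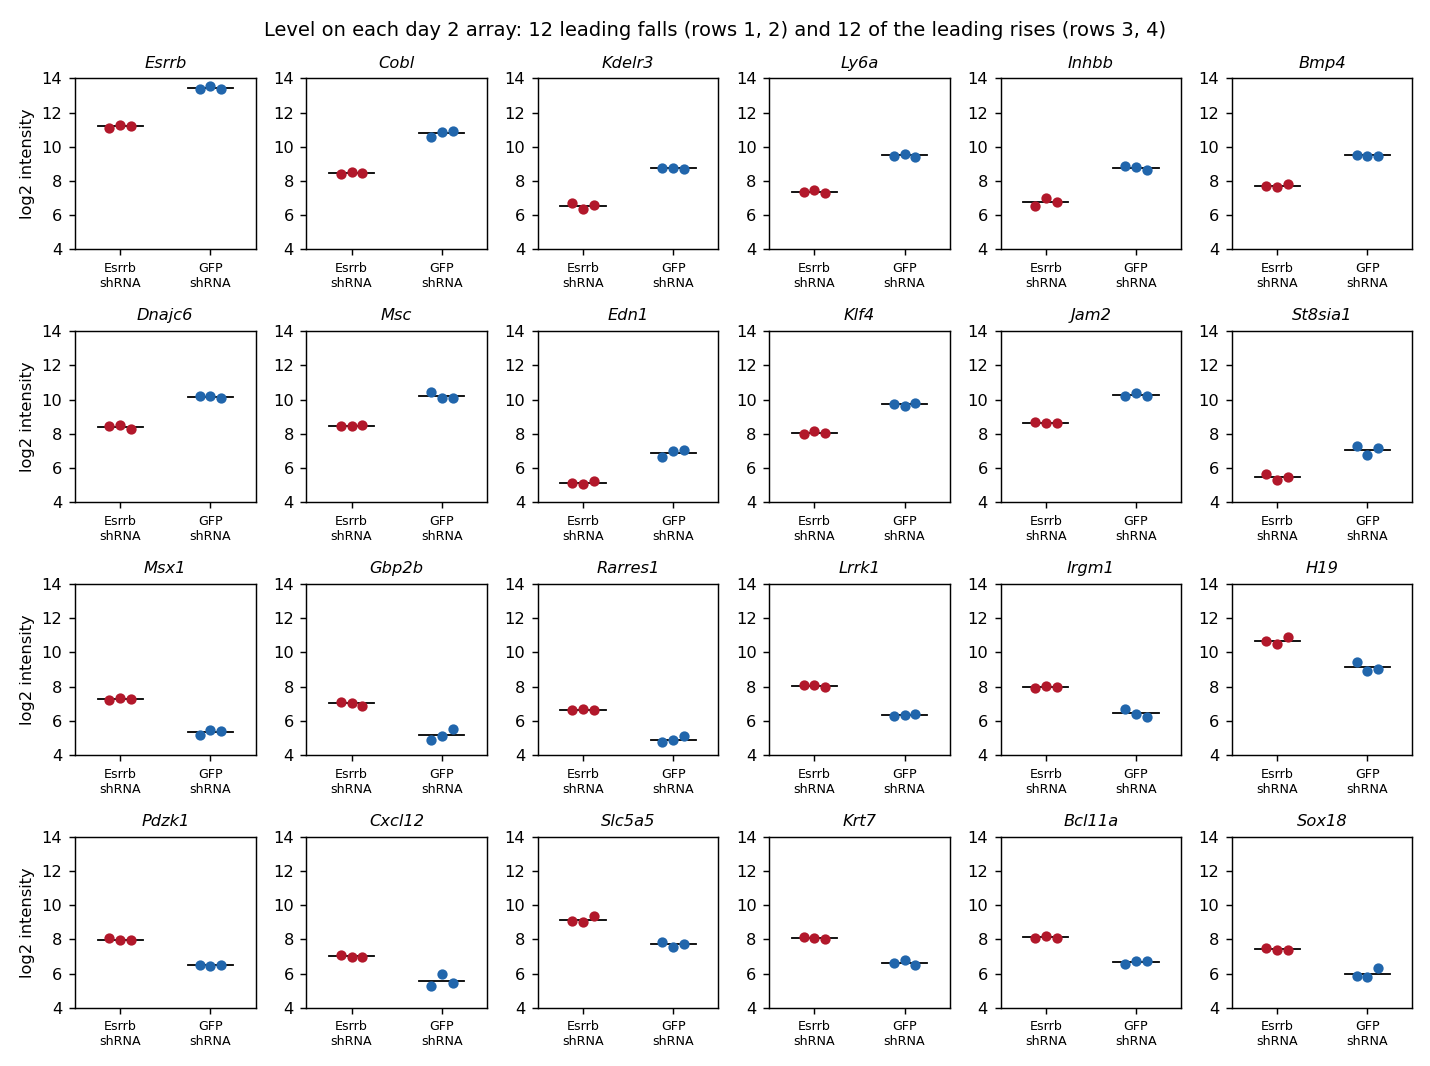
Log2 level on each of the 3 Esrrb shRNA arrays (left in each panel, red) and 3 GFP shRNA arrays (right, blue) at day 2 for the 12 largest falls by the naming rule and 12 of the 25 largest rises, with the group mean as a line. In each panel the arrays of one group lie wholly on one side of the other group.

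Msx1, Gbp2b, Rarres1 and Lrrk1 rose furthest among the genes named. The 25 largest rises by the naming rule lay between 1.23 and 1.94 and were all called in the day 2 arrays alone. Msx1, a homeobox gene that responds to BMP, had 7.22, 7.35 and 7.28 in Esrrb shRNA cells and 5.16, 5.48 and 5.40 in GFP shRNA cells. All 3 control arrays were dim, and the rise of 3.83-fold (log2 fold change 1.94, SE 0.13, adjusted p = 2.80e-09) was 1.23 in log2 units without background correction. Lrrk1, a leucine-rich repeat kinase, had 8.06, 8.09 and 8.0 in Esrrb shRNA cells and 6.25, 6.32 and 6.38 in GFP shRNA cells. Both groups were tight, and the rise was 3.32-fold (1.73, SE 0.11, adjusted p = 1.35e-09).

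Lefty1, a secreted inhibitor of Nodal, had 12.04, 12.06 and 12.07 in Esrrb shRNA cells and 10.46, 10.88 and 10.59 in GFP shRNA cells. It was bright on every array, so its 2.66-fold rise (1.41, SE 0.10, adjusted p = 4.06e-09) was nearly the same without background correction (1.39).

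Bcl11a, a zinc finger repressor, had 8.10, 8.21 and 8.06 in Esrrb shRNA cells and 6.53, 6.75 and 6.74 in GFP shRNA cells and rose by 1.45 (SE 0.10). Sox18, a factor of endothelial development, rose by 1.44 (SE 0.14), Cxcl12, a chemokine, by 1.46 (SE 0.17) and Esrp1, a regulator of epithelial splicing, by 1.26 (SE 0.10). Pdzk1, a scaffold of membrane transporters, rose by 1.51 (SE 0.09), and Rarres1, a gene named for its response to retinoids, by 1.76 (SE 0.15). Prom1, the surface protein CD133, had 9.06, 9.18 and 9.25 in Esrrb shRNA cells and 7.22, 7.96 and 8.19 in GFP shRNA cells. Its controls ran over almost 1 log2 unit, yet none reached the knockdown arrays (1.38, SE 0.17).

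Enpp2, the gene of autotaxin, which makes lysophosphatidic acid, was not detected on any GFP shRNA array and was at least 1.59-fold higher in Esrrb shRNA cells. Slc5a5, the sodium iodide symporter, rose by 1.45 on its main probe and had 0.40 on a dim one that did not pass. Clps, the lipase cofactor colipase, had 1.24 and 0.32 in the same way. Without background correction all 50 of these genes were still called, but 4 falls (Abca14, Edn1, Klk1b26 and Rab6b) and 6 rises, Ap3b2, Gbp2b, Msx1 and Rarres1 among them, were smaller by over 1.5 times in fold.

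Genes of the BMP pathway moved in both directions, with 1 ligand gene, Bmp4, lower and some target genes higher. The ligand genes Bmp7 (-0.26) and Bmp8b (-0.10) were not called, nor were Id4 (-0.003) and Dlx5 (0.19). Id2 (0.47) was called in the model of 18 arrays only. BMP ligands signal through serine kinase receptors to SMAD factors, which switch on Id and Msx genes. Of 18 tested members 6 were higher and 1 lower (4 and 1 in the day 2 arrays alone), with a median of 0.22. Within the 3 BeadChips the median was 0.25, 0.31 and 0.22. The member that fell was Bmp4 itself, at 7.67, 7.65 and 7.81 in Esrrb shRNA cells and 9.53, 9.48 and 9.48 in GFP shRNA cells. Controls agreed closely, no knockdown array approached them, and the fall was 3.45-fold (-1.78, SE 0.09, adjusted p = 4.36e-11). Its dim probe fell by 1.22 (SE 0.12).

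Id1, an inhibitor of helix-loop-helix factors, had 11.19, 11.37 and 11.37 in Esrrb shRNA cells and 10.31, 10.46 and 10.20 in GFP shRNA cells. It rose 1.98-fold (0.98, SE 0.10, adjusted p = 1.36e-06), in the opposite direction to Bmp4. Its relative Id3 rose by 0.67 (SE 0.09) and the homeobox gene Msx2 by 0.56 (SE 0.13). Dlx3, a homeobox gene of placenta and ectoderm, was at 0.58 (SE 0.14, adjusted p = 0.0077), a call not made in the day 2 arrays alone (adjusted p = 0.074) or without GFP shRNA replicate 1.

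In the activin and Nodal pathway, whose ligands act through SMAD2 and SMAD3, 5 of 21 members were higher and 2 lower (2 and 2 in the day 2 arrays alone), with a median of 0.14. Within BeadChips the median was 0.26, 0.03 and 0.05. Inhbb, a subunit of activin B and inhibin B, had 6.55, 7.0 and 6.74 in Esrrb shRNA cells and 8.88, 8.83 and 8.62 in GFP shRNA cells. It fell 4.04-fold (-2.01, SE 0.12, adjusted p = 5.58e-10) with a wide gap between the groups. Pcsk6, a convertase that cleaves Nodal and related precursors, had 8.56, 8.46 and 8.63 in Esrrb shRNA cells and 9.64, 9.82 and 9.71 in GFP shRNA cells. It fell by 1.17 (SE 0.09, adjusted p = 3.67e-08), while a dim probe gave -0.23 and did not pass. Lefty1, described above, was called higher in either fit, while Lefty2 (0.06) was not called.

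FGF signalling runs through ERK kinases and pushes mouse embryonic stem cells out of the naive state. Of its 20 members 3 were higher and 3 lower in both fits, around a median of -0.00. The falls were of Fgf4, a ligand made by naive cells (-0.68, SE 0.17), Spry4, a feedback inhibitor (-0.47, SE 0.09), and Etv4, a target of ERK (-0.52, SE 0.11). Fgf4 no longer passed without GFP shRNA replicate 2. Among the members tested and not called were Etv5 (-0.02), Dusp6 (-0.13), Egr1 (-0.10), Spry1 (-0.03) and Dusp4 (0.26). The rises were of Fgf5, a ligand of the later epiblast (0.92, SE 0.15), the receptor gene Fgfr2 (0.64, SE 0.12) and Fgfbp1, which releases bound FGF (0.67, SE 0.15). Fgf5 was detected on 1 control array and all 3 knockdown arrays, and the call on Fgfr2 rests on its bright probe, since its other probes were at 0.10 and 0.24.

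Of 21 Wnt members 3 were higher and 2 lower in both fits, with a median of -0.03. Fzd5, a Wnt receptor, had 9.97, 9.87 and 9.88 in Esrrb shRNA cells and 10.66, 10.70 and 10.63 in GFP shRNA cells, a tight pair of groups and a fall of 0.76 (SE 0.09). Sfrp1, a secreted Wnt antagonist, fell by 0.90 (SE 0.10). Sp5, a transcription factor gene that Wnt activates, had 8.34, 8.24 and 8.04 in Esrrb shRNA cells and 7.23, 7.37 and 7.54 in GFP shRNA cells, a rise of 0.83 (SE 0.14). Lef1, a nuclear partner of beta-catenin, rose by 0.65 (SE 0.14). Axin2 (-0.16), Cdx1 (-0.24), Tcf7 (-0.15), Fzd7 (0.20) and Porcn (0.26) were among the members tested and not called. Wnt8a, a ligand, was not detected on any control array and was at least 1.1-fold higher.

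Of 17 LIF and STAT3 members 1 was higher and 4 were lower (0 and 2 in the day 2 arrays alone). The pair that fell in both fits was Klf4 and another Krüppel-like factor, Klf5 (-0.67, SE 0.09). Pim3, a kinase gene that STAT3 activates, was at -0.41 (SE 0.08, adjusted p = 0.0014 in the model of 18 arrays and 0.051 in the day 2 arrays alone). Of 11 retinoic acid members 1 was higher and 2 lower, and only Crabp1, a cytoplasmic carrier of retinoic acid (-0.56, SE 0.13), was called in both fits.

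For the naive pluripotency list 12 of 18 members were lower and 0 higher by limma (10 and 0 in the day 2 arrays alone, 15 and 2 at an unadjusted p under 0.05), with a median of -0.61. This list, like the others, was chosen with earlier results of these data known. It shares Klf4 and Klf5 with the LIF list, Fgf4 with the FGF list and Jam2 with the junction list, so these counts are not separate results. Tcl1, a cofactor of the kinase AKT, had 7.71, 7.80 and 7.66 in Esrrb shRNA cells and 8.81, 8.69 and 8.57 in GFP shRNA cells, a fall of 0.96 (SE 0.10). Manba, a lysosomal mannosidase, had 9.10, 9.10 and 8.98 in Esrrb shRNA cells and 10.57, 10.34 and 10.17 in GFP shRNA cells, a fall of 1.30 (SE 0.11). Of 9 primed epiblast members, which mark the epiblast after implantation, 5 were higher and 1 lower (4 and 1 in the day 2 arrays alone), with a median of 0.37. Sall2, a zinc finger factor, rose by 1.00 (SE 0.15) and Pou3f1, a POU factor, by 1.11 (SE 0.10). Otx2 (-0.06), Zic2 (0.11) and Dnmt3b (0.29) were tested and not called, and the member that fell was Etv4. Nodal (0.37) was called in the model of 18 arrays only. Fgf5 and Etv4 are also in the FGF list, Lef1 in the Wnt list and Nodal in the activin list. The primed count is therefore not a separate result from those lists.

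**Figure D3:**
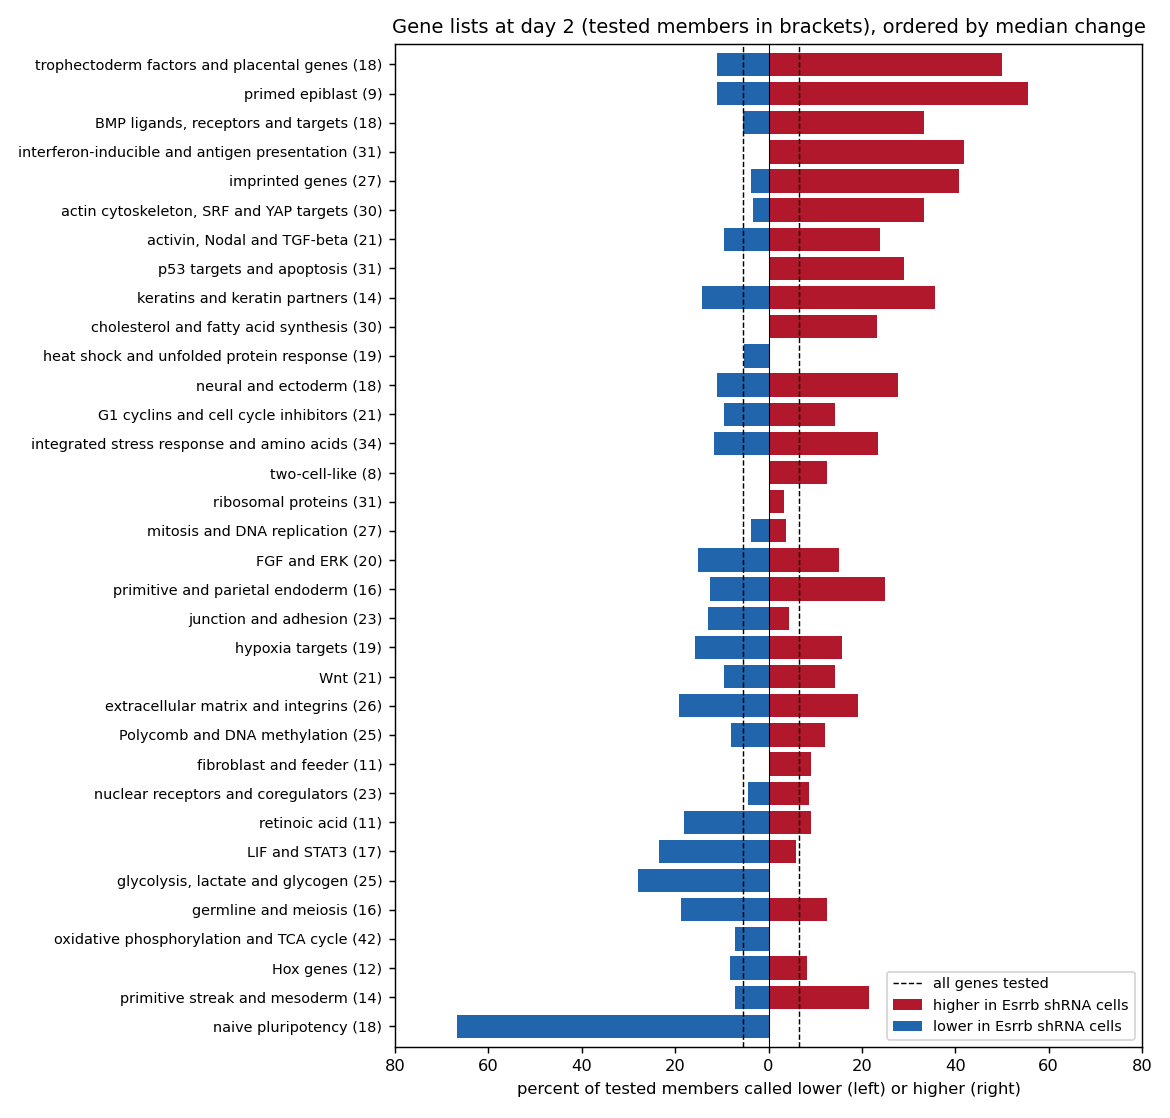
Share of the tested members of each gene list called higher (red, right) or lower (blue, left) in Esrrb shRNA cells at day 2, in percent, with the shares over all 14533 genes as dashed lines (6.60% and 5.55%). Lists run from the highest median change (top, trophectoderm, 0.55) to the lowest (bottom, naive pluripotency, -0.61).

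Trophectoderm factors, which set up the outer, placental lineage of the early embryo, were among the genes that rose. Of 18 members 9 were higher and 2 lower (8 and 1 in the day 2 arrays alone), with a median of 0.55 and within-BeadChip medians of 0.63, 0.55 and 0.40. Cdx2, a homeobox factor that defines the lineage, had 6.93, 6.83 and 6.74 in Esrrb shRNA cells and 6.11, 5.94 and 5.76 in GFP shRNA cells. Its groups did not overlap and it rose by 0.90 (SE 0.10, adjusted p = 4.30e-06). Gata2 had 8.07, 8.13 and 8.09 in Esrrb shRNA cells and 7.19, 7.11 and 6.95 in GFP shRNA cells (1.01, SE 0.14), and Gata3 rose by 1.04 (SE 0.17). Both are zinc finger factors of trophoblast. Eomes (0.21), Tfap2c (0.30) and Plet1 (-0.11) were among the members tested and not called. Fgfr2, among the rises, is also in the FGF list.

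Rhox9, a homeobox gene of the reproductive cluster on the X chromosome, rose by 0.77 (SE 0.10). The member that went furthest the other way was Tead4, the factor that acts upstream of Cdx2 in the embryo. It had 5.09, 5.21 and 5.16 in Esrrb shRNA cells and 6.17, 6.10 and 6.02 in GFP shRNA cells and fell by 0.94 (SE 0.13, adjusted p = 5.21e-05). Of the 7 trophectoderm markers kept for checking cell types, 6 were tested and 5 were higher. Their summed level was 1280 to 1375 in Esrrb shRNA cells and 604 to 674 in GFP shRNA cells, while Elf5, a defining factor of trophoblast, could not be tested because no group detected it on all 3 arrays. The markers that were higher were Krt7, Krt8, Krt18, Cdx2 and Gata3, and Eomes was not called. The keratins among them moved with the keratin genes described next, so this is not a separate result. Their part in the summed level was not tested.

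Keratins form the intermediate filaments of epithelia, and 5 of 14 members of their list were higher in both fits, with 2 lower in the model of 18 arrays only. Krt7 had 8.15, 8.08 and 8.01 in Esrrb shRNA cells and 6.61, 6.79 and 6.49 in GFP shRNA cells, a rise of 2.73-fold. Krt17, a keratin of stressed and basal epithelium, had 9.87, 9.84 and 9.86 in Esrrb shRNA cells and 8.89, 9.00 and 8.79 in GFP shRNA cells. Its knockdown arrays were almost equal, and it rose by 0.97 (SE 0.09, adjusted p = 1.94e-07). Krt19 was not detected on any control array and was at least 1.16-fold higher. Its call was lost without the filter on dim probes (adjusted p = 0.099) and when any Esrrb shRNA array or GFP shRNA replicate 1 or 3 was left out (adjusted p between 0.050 and 0.101).

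The junction and adhesion list had 1 of 23 members higher and 3 lower in both fits. Jam2 and Ncam1, the neural cell adhesion molecule (-0.98, SE 0.13, with -0.55 on a probe that did not pass), were among the falls. Pcdh1, a protocadherin of epithelial contacts, rose by 0.85 (SE 0.08).

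Genes of the actin cytoskeleton and targets of SRF and YAP, factors that respond to actin and to cell shape, had 10 of 30 members higher and 1 lower (5 and 1 in the day 2 arrays alone). The median was 0.15. Zyx, an adhesion protein of stress fibres, had 10.46, 10.47 and 10.49 in Esrrb shRNA cells and 9.57, 9.57 and 9.38 in GFP shRNA cells. The knockdown arrays were nearly equal, and the rise was 1.96-fold (0.97, SE 0.09, adjusted p = 3.13e-07). Anxa3, an annexin, rose by 0.58 (SE 0.10), Tpm1, a tropomyosin, by 0.48 (SE 0.11) and Lgals1, galectin-1, by 0.46 (SE 0.09). The gene for smooth muscle actin, Acta2, was not detected on any control array and was at least 1.65-fold higher, while its dim probes were at 0.19 and -0.07. The member that fell was Cobl.

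Extracellular matrix and integrin genes went both ways, with 5 of 26 higher and 5 lower (3 and 3 in the day 2 arrays alone). Serpinh1, a chaperone of collagen, had 9.80, 9.78 and 9.93 in Esrrb shRNA cells and 9.16, 9.02 and 8.98 in GFP shRNA cells and rose by 0.78 (SE 0.09). Mmp2, a matrix protease, rose by 0.51 (SE 0.08). The integrin subunit genes Itga9 and Itga6 fell by 0.83 (SE 0.10) and 0.55 (SE 0.12). The Itga6 call rests on its bright probe, because 3 others gave -0.34, -0.36 and -0.06 and did not pass.

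Imprinted genes are read from 1 parental copy, and many of them govern growth of embryo and placenta. Of 27 tested members 11 were higher and 1 lower (7 and 1 in the day 2 arrays alone), with a median of 0.19 that was 0.19, 0.19 and 0.17 within the BeadChips. H19, a maternally expressed noncoding RNA, had 10.64, 10.49 and 10.88 in Esrrb shRNA cells and 9.45, 8.92 and 9.05 in GFP shRNA cells. No control array reached the lowest knockdown array, and it rose 2.89-fold (1.53, SE 0.13). Igf2, its neighbour and a paternally expressed growth factor, had 10.71, 10.74 and 10.51 in Esrrb shRNA cells and 9.50, 9.45 and 9.31 in GFP shRNA cells. It rose 2.35-fold (1.23, SE 0.12, adjusted p = 3.68e-07), so maternally and paternally expressed genes of 1 cluster rose together.

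Cdkn1c, the cyclin-dependent kinase inhibitor p57, had 11.29, 11.12 and 11.23 in Esrrb shRNA cells and 9.99, 10.37 and 10.20 in GFP shRNA cells and rose by 1.03 (SE 0.10). Genes of the Dlk1 and Meg3 cluster were higher as well. The Notch-like ligand gene Dlk1 rose by 0.80 (SE 0.10) and the noncoding RNA Rian by 0.90 (SE 0.13). Peg3, a zinc finger gene, rose by 0.73 (SE 0.11). The exception was Peg10, a retrotransposon-derived gene needed in the placenta, at 5.43, 5.13 and 5.11 in Esrrb shRNA cells and 5.84, 5.95 and 5.65 in GFP shRNA cells. It was dim throughout and fell by 0.59 (SE 0.11, adjusted p = 0.0014).

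Interferon-inducible and antigen presentation genes had 13 of 31 members higher and 0 lower by limma (8 and 0 in the day 2 arrays alone, 15 and 1 at an unadjusted p under 0.05), with a median of 0.21 and within-BeadChip medians of 0.32, 0.28 and 0.25. Irgm1, a GTPase that acts against intracellular microbes, had 7.92, 8.01 and 7.99 in Esrrb shRNA cells and 6.71, 6.37 and 6.22 in GFP shRNA cells. Knockdown arrays were nearly equal and the rise was 2.91-fold (1.54, SE 0.14). Irf1, the transcription factor that switches on such genes, had 9.39, 9.37 and 9.41 in Esrrb shRNA cells and 8.46, 8.19 and 8.13 in GFP shRNA cells. It rose 2.19-fold (1.13, SE 0.10, adjusted p = 1.63e-07), and 2 further probes rose by 1.03 and 0.79, while the dimmest gave 0.23.

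Gbp3, a guanylate-binding protein, had 6.99, 7.08 and 6.86 in Esrrb shRNA cells and 5.86, 5.71 and 5.86 in GFP shRNA cells (1.16, SE 0.12). Gbp2b, a close relative outside the list, rose by 1.85 (SE 0.13), and the probes of such related genes may read more than 1 of them. Ifitm3 and Ifitm1, membrane proteins that hinder virus entry, rose by 0.77 (SE 0.09) and 0.66 (SE 0.08). Of the further Ifitm1 probes, a bright one gave 0.59 and passed, and those at 0.30 and -0.04 did not. Psmb8, a subunit of the immunoproteasome, rose by 1.12 (SE 0.18) and by 1.08 on another probe, and the dimmest gave 0.10.

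A probe named AMPR, the usual short name of the bacterial ampicillin resistance gene that cloning plasmids carry, was bright in both groups at day 2. Its raw intensity was 4059, 3666 and 4138 on the Esrrb shRNA arrays and 3717, 2857 and 3910 on the GFP shRNA arrays, so the groups overlapped although the knockdown array was the brighter on every BeadChip. By day 6 it was 119 to 163 in Esrrb shRNA cells and 59.1 to 73.1 in GFP shRNA cells. The part of plasmid content in the interferon result was not tested.

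Among genes of glycolysis, lactate and glycogen the calls went down. Of 25 members 7 were lower and 0 higher by limma (5 and 0 in the day 2 arrays alone, 10 and 1 at an unadjusted p under 0.05), with a median of -0.09. Hk1, the hexokinase that opens glycolysis, had 9.08, 8.82 and 9.10 in Esrrb shRNA cells and 10.09, 9.72 and 9.85 in GFP shRNA cells and fell by 0.88 (SE 0.13). Pfkp, a phosphofructokinase, had 9.56, 9.34 and 9.49 in Esrrb shRNA cells and 10.58, 10.48 and 10.48 in GFP shRNA cells. Both its probes fell (-1.05 and -1.07). Pdk1, a kinase that turns off pyruvate dehydrogenase, fell by 0.49 (SE 0.10), and Gys1, glycogen synthase, by 0.60 (SE 0.13). The Gys1 call rests on its brightest probe, since the other probes gave -0.43 and -0.23 and did not pass.

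Of 42 genes of oxidative phosphorylation and the TCA cycle 3 were lower and 0 higher by limma in both fits (7.1% called, 11 and 2 at an unadjusted p under 0.05). Over all genes 5.55% were called lower (2.92% in the day 2 arrays alone) and 12.1% in either direction. In the model of 18 arrays the list thus stood below the background in calls in either direction and near it in falls. In the day 2 arrays alone its 7.1% stood above the background for falls and somewhat above the 5.93% for either direction. The list median was -0.11, with within-BeadChip medians of -0.04, -0.14 and -0.10. The members that fell were Idh2, the mitochondrial isocitrate dehydrogenase, Ckmt1, a mitochondrial creatine kinase, and Cox7a1, a muscle-type subunit of cytochrome oxidase. Idh2 had 8.25, 8.90 and 8.54 in Esrrb shRNA cells and 9.37, 9.58 and 9.83 in GFP shRNA cells, wide within groups but without overlap (-1.03, SE 0.16). Cox7a1 fell by 0.53 (SE 0.09) and Ckmt1 by 0.77 (SE 0.13) on its bright probe, with -0.07 on a dim one.

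Calls among sterol genes went the other way, though mostly in the larger model. Of 30 cholesterol and fatty acid synthesis genes 7 were higher and 0 lower by limma, with a median of 0.11 (8 and 0 at an unadjusted p under 0.05), but the day 2 arrays alone called 1. The enzymes of the pathway gave small values. Fdps, farnesyl diphosphate synthase, was at 0.41 (SE 0.09), Msmo1, a sterol oxidase, at 0.37 (SE 0.08) and Sqle, squalene epoxidase, at 0.38 (SE 0.09), each with an adjusted p from the day 2 arrays alone between 0.055 and 0.076. Sqle was not called without Esrrb shRNA replicate 1, and further probes of Fdps (0.18) and Sqle (0.26) did not pass.

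Genes of the integrated stress response and amino acid supply had 8 of 34 higher and 4 lower (7 and 0 in the day 2 arrays alone), around a median of 0.05. Slc38a2 and Slc1a4, transporters of neutral amino acids, rose by 0.57 (SE 0.10) and 0.67 (SE 0.13). Nupr1, a small stress-induced nuclear protein, had 8.57, 8.54 and 8.48 in Esrrb shRNA cells and 7.80, 8.04 and 8.07 in GFP shRNA cells (0.56, SE 0.10). Ddit4, an inhibitor of mTORC1, rose by 0.93 (SE 0.16) and Ddit3, the factor CHOP, by 0.51 (SE 0.11). The heat shock and unfolded protein list had 0 of 19 higher and 1 lower by limma (0 and 0 in the day 2 arrays alone, 4 and 2 at an unadjusted p under 0.05).

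Of 19 hypoxia targets 3 were higher and 3 lower (2 and 1 in the day 2 arrays alone). Egln3, a prolyl hydroxylase that marks HIF for destruction, had 10.02, 10.19 and 10.20 in Esrrb shRNA cells and 8.80, 8.84 and 8.73 in GFP shRNA cells. All 3 knockdown arrays were more than 1 log2 unit above all controls (1.34, SE 0.09, adjusted p = 5.24e-09), while a dim probe gave -0.20 and did not pass. Car12, a carbonic anhydrase, rose by 0.74 (SE 0.11).

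Of 31 p53 targets and apoptosis genes 9 were higher and 0 lower by limma (3 and 0 in the day 2 arrays alone, 10 and 1 at an unadjusted p under 0.05), with a median of 0.14 and within-BeadChip medians of 0.03, 0.19 and 0.25. The genes called in both fits were Eda2r, a death-domain receptor (0.70, SE 0.10), Trp53inp1, a stress-induced regulator of p53 (0.64, SE 0.10), and Ddit4l, a relative of Ddit4 (0.53, SE 0.10). Trp53inp1 had 11.50, 11.43 and 11.38 in Esrrb shRNA cells and 10.73, 10.85 and 10.80 in GFP shRNA cells, with no overlap.

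Of 21 G1 cyclins and cell cycle inhibitors 3 were higher and 2 lower in both fits (23.8% called). Of 27 genes of mitosis and DNA replication 1 was higher and 1 lower (7.4% called), against 0 and 1 in the day 2 arrays alone. Ccnd3, a D-type cyclin, had 7.60, 7.46 and 7.39 in Esrrb shRNA cells and 8.11, 8.28 and 8.42 in GFP shRNA cells and fell by 0.78 (SE 0.10). E2f2, an activator of S phase genes, fell by 0.74 (SE 0.10). Mybl2, a regulator of mitotic genes, had 10.14, 9.99 and 10.05 in Esrrb shRNA cells and 10.86, 10.95 and 10.80 in GFP shRNA cells. It fell by 0.81 (SE 0.09) and by 0.74 (SE 0.09) on another probe. Rb1, the retinoblastoma gene, rose by 0.48 (SE 0.11).

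Markers of other early lineages split. In primitive and parietal endoderm 4 of 16 members were higher and 2 lower in both fits. Foxa2, a forkhead factor of endoderm, and Dab2, an endocytic adaptor of extraembryonic endoderm, rose by 0.90 (SE 0.14) and 0.83 (SE 0.09), with Foxa2 detected on only 1 control array and a dim Dab2 probe at 0.21 that did not pass. Gata6, a factor that starts the primitive endoderm programme, had 6.76, 6.67 and 6.66 in Esrrb shRNA cells and 7.32, 7.52 and 7.28 in GFP shRNA cells and fell by 0.67 (SE 0.12). Sox17 was not detected on any knockdown array and was at least 1.09-fold lower.

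Of 18 neural and ectoderm genes 5 were higher and 2 lower (4 and 1 in the day 2 arrays alone). Gap43, a growth cone protein, had 9.31, 9.38 and 9.33 in Esrrb shRNA cells and 8.16, 8.33 and 8.30 in GFP shRNA cells, a rise of 2.11-fold, and the factor Sox11 rose by 0.66 (SE 0.11). Of 14 primitive streak and mesoderm genes 3 were higher and 1 lower (3 and 0 in the day 2 arrays alone), with a median of -0.14 that ran against the balance of calls. Evx1, a homeobox gene of the streak, rose by 0.71 (SE 0.11).

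Against the background of 12.1%, called members made up 3.2% of 31 ribosomal protein genes and 5.3% of the heat shock list. The shares were 9.1% for 11 fibroblast genes, 12.5% for 8 two-cell-like genes and 13.0% for 23 nuclear receptors and coregulators. The day 2 arrays alone called 1 higher and 1 lower among the nuclear receptors and coregulators, and 0 in each of the other lists just given. Esrrb was the 1 receptor that fell, and Rxrg, a retinoid X receptor, rose by 0.69 (SE 0.14). Dcn, the only fibroblast marker called (0.36, SE 0.11), was not detected on any control array, was at least 1.11-fold higher, and was not called in the day 2 arrays alone or without Esrrb shRNA replicate 1 or 3 or GFP shRNA replicate 2 or 3. Germline and meiosis genes had 2 of 16 higher and 3 lower, a share of 31.2%, but the day 2 arrays alone called 0 higher and 1 lower. Polycomb and DNA methylation genes had 3 of 25 higher and 2 lower, also a share above the background, against 1 and 0 in the day 2 arrays alone, and Hox genes had 1 of 12 higher and 1 lower (16.7%), against 0 and 0.

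Esrrb recognises TCAAGGTCA, and the windows from 250 bases before to 50 bases after gene starts were searched for these letters on both strands. RefSeq windows (GRCm38.p6) were found for 539 of the 806 lower genes and 643 of the 959 higher genes. With fewer than 80% of either set matched, a comparison of shares is void. The letters were in the windows of 4 lower genes, 2 higher genes and 0.466% of all 27025 genes in the table. Among the genes at least 2-fold lower, 46 of 81 had a window and 1 held the letters, and among those at least 2-fold higher, 43 of 64 had a window and 0 held them. The 3 windows with the motif whose genes were called in both fits are shown around the match, which is in capitals, as TCAAGGTCA or as its reverse complement TGACCTTGA. Tmem191c, a transmembrane protein gene (-1.24, SE 0.14), is shown at chr16:17276054-17276182 on the plus strand, and Gjb1, connexin 32 (-0.44, SE 0.12), at chrX:101381950-101382078 on the plus strand. Sgms1, a sphingomyelin synthase gene that rose (0.51, SE 0.11), is shown at chr19:32349289-32349417 on the minus strand. These genes were chosen for the motif after their values were seen.
Tmem191c: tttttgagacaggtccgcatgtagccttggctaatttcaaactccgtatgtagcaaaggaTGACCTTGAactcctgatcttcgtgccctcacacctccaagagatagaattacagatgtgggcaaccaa
Gjb1: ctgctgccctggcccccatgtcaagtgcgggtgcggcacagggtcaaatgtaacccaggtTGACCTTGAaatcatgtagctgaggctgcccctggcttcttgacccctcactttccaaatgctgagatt
Sgms1: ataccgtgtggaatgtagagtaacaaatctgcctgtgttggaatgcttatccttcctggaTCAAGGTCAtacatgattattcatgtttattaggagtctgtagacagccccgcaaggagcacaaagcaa

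The effects at day 2 were set against those at days 4 and 6 by testing the difference of effects in the same model. Between day 2 and day 4 the effect differed for 700 genes (4.82%), with 2.32% of all genes having a higher and 2.50% a lower effect at day 4. With the BeadChip as a replicate block, the genes with a higher effect at day 4 numbered 527, against 337 without it. With median centring the split was 343 higher and 135 lower, against 337 and 363. Between day 2 and day 6 it differed for 3663 genes (25.2%), 11.3% with a higher and 13.9% with a lower effect at day 6. Over all genes tested, 23.4% were called at day 4 (12.3% higher, 11.1% lower) and 41.0% at day 6 (19.8% higher, 21.2% lower). Of the 959 genes higher at day 2, 552 were called higher at day 4 and 510 at day 6, where 112 were called lower. Of the 806 genes lower at day 2, 544 were called lower at day 4 and 503 at day 6, where 68 were called higher. Of the large early changes, 57 of the 64 genes at least 2-fold higher and 80 of the 81 at least 2-fold lower were called in the same direction at day 4. At neither later day called were 218 of all higher and 132 of all lower genes.

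Effects that grew include those on Igf2, at 1.23, 2.74 and 3.89 on days 2, 4 and 6, and on Cxcl12, at 1.46, 2.72 and 3.34. Krt8 stood at 1.15, 2.80 and 3.00, and Krt18 at 0.79, 2.07 and 2.67. Sp5 was at 0.83 and 1.03 on days 2 and 4 and at 4.39 on day 6, a difference from day 2 of 3.56 (adjusted p = 2.44e-10). T, the streak factor brachyury, was at 0.57, 0.15 and 3.59 in the same order. These are differences of effect between groups on each day, with SE between 0.10 and 0.17.

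Other effects were smaller at the later days. Fgr, a kinase of the Src family, was at 1.26 on day 2, 0.59 on day 4 and 0.18 on day 6 (day 4 minus day 2 -0.68, adjusted p = 0.0156). Clps was at 1.24, 0.33 and 0.16 in the same order. Lrrk1 was at 1.73, 1.16 and 0.88, smaller later but still called higher on both days. The sterol list had medians of 0.11, -0.03 and -0.07, with 7 members higher and 0 lower at day 2, 0 higher and 6 lower at day 4, and 3 higher and 7 lower at day 6. In the day 2 arrays alone the day 2 count was 1 higher and 0 lower.

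A further set turned round. Ddit3 was at 0.51 on day 2, -1.45 on day 4 and -1.87 on day 6 (day 4 minus day 2 -1.96, adjusted p = 1.84e-07), and Nupr1 was at 0.56, -1.08 and -1.60. Both were higher in knockdown cells at day 2 and lower at both later days. Egln3 was at 1.34, 0.32 and -1.05, and Snorc, a proteoglycan of cartilage, at 0.86, 0.22 and -1.15. Fcgrt, the neonatal Fc receptor, was at 0.68, -0.12 and -1.58. In the other direction, Edn1 was at -1.73, -0.97 and 0.91 (day 6 minus day 2 2.65, adjusted p = 1.11e-09), and Peg10 at -0.59, 0.33 and 1.87. In all, 180 genes were called in opposite directions at day 2 and day 6.

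**Figure D4:**
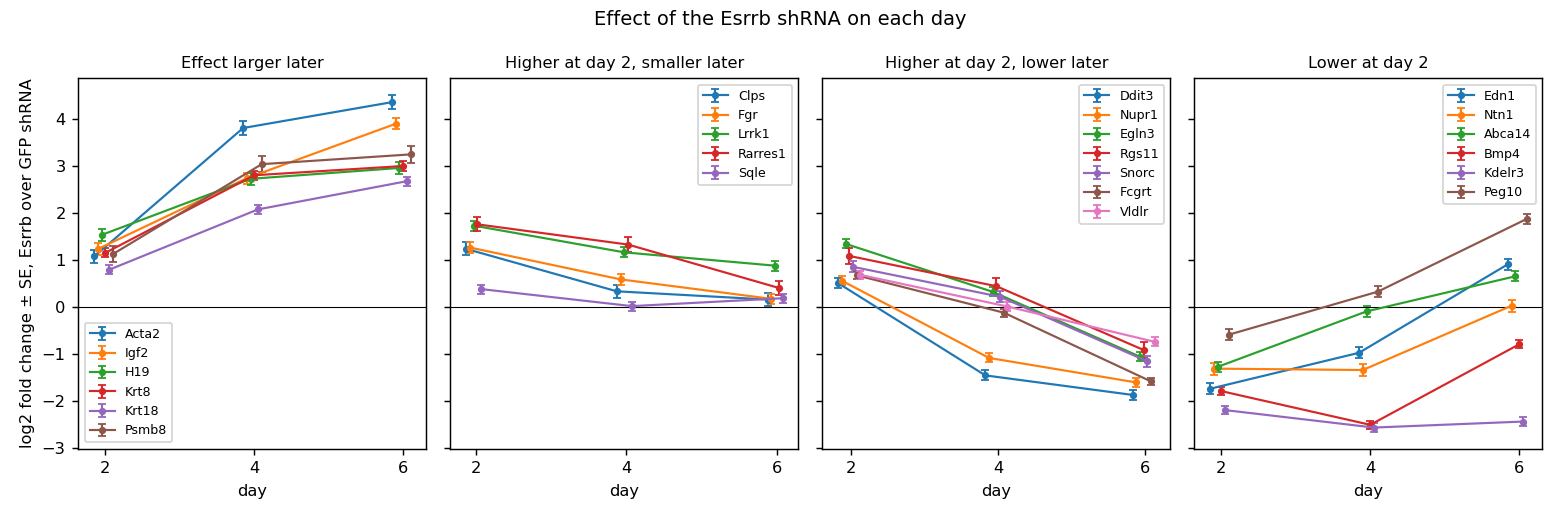
Effect of the Esrrb shRNA (log2 fold change over GFP shRNA, points, with SE as bars) on days 2, 4 and 6 for genes in 4 groups by course. Acta2 and Igf2 climb to about 4 at day 6, Fgr and Clps start above 1 and end near 0, Ddit3 and Egln3 cross from above to below 0, and Edn1 crosses from below to above.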

How the data were processed

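The authors' deposited raw table holds bead-averaged probe intensity (BeadStudio output per the file headers) without normalization or background subtraction, a detection score (a fraction from 0 to 1) and the bead number (other, median 37 per probe). A further deposited table holds intensity values normalized between arrays by a method not given in the sources used here and was used for counts alone. In R 4.3.3, limma 3.58.1 (neqc: normexp background with detection p taken as 1 minus the score, offset 16, quantile normalization, log2) was applied to all 18 arrays. A probe was kept where some group had it at detection p under 0.05 on each of its 3 arrays (19460 probes), and the brightest stood for its gene. A model of 6 groups gave the contrasts, adjusted by Benjamini-Hochberg, and tests were two-sided. On simulated data the step called 33 of 58 genes changed by 0.5, 67 of 69 changed by 1 and 14 of 14333 unchanged genes. Replicate numbers are BeadChips per the file headers, and deviations of arrays with the same number correlated at 0.18, 0.23 and 0.083.

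The named genes were Esrrb, the 25 largest rises and falls among called genes without overlap (clone, predicted, Gm and Rik names left out), up to 6 members per list with the lowest adjusted p, and the largest differences between days. A few genes that the rule named are not reported here. Members, the 34 lists and the rule were chosen with earlier results of these data known. RefSeq names (GRCm38.p6) matched 16079 of 34325 target names directly and 6654 through a synonym. "At least" folds set each undetected array to the higher of its detection floor and its own level. Alternatives were no background correction, median centring, no or a stricter filter, the mean of all probes, the replicate block, the day 2 arrays alone, each array left out, and, chosen after seeing the data, each probe on its own and list counts in the day 2 arrays alone. The number of arrays limits the precision, and the p-values measure the spread between these arrays.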

Additional observations from a re-analysis of the deposited data

Results flagged for a closer look

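For 36 of the 48 leading genes reported here, the effect of the Esrrb shRNA at day 4 or at day 6 differed from that at day 2 by limma's test of the difference itself. Over all genes tested, 4.82% differed at day 4 and 25.2% at day 6. The leading genes were chosen for their large day 2 changes, and the test subtracts those same day 2 values. The count and the effects that were smaller later are therefore not free of that choice. The values are the later effect minus the day 2 effect in log2 units.

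Among the genes higher at day 2, the effect was larger later for Igf2 (1.50 at day 4, 2.66 at day 6), H19 (1.19 and 1.42), Cxcl12 (1.27 and 1.89), Gbp2b (0.75 and 1.60), Krt7 (0.81 and 0.60) and Esrp1 (0.49 and 0.94). At day 6 alone this held for Slc5a5 (1.73), Irgm1 (1.21), Lor (1.06), Msx1 (0.79), Bcl11a (0.62) and Lefty1 (0.41).

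The effect on other rises was smaller later or turned. That was so for Egln3 (-1.02 at day 4, -2.40 at day 6), Clps (-0.90 and -1.08), Fgr (-0.68 and -1.09) and Lrrk1 (-0.57 and -0.85). At day 6 alone it was so for Rarres1 (-1.35), Pdzk1 (-1.23), Sox18 (-0.94) and Igdcc4 (-0.63).

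Falls that were deeper later were those of Manba (-1.13 at day 4), Inhbb (-1.20 at day 4), Cobl (-0.73 at day 4), Msc (-0.67 at day 4), Khdc3 (-1.01 at day 4, -0.81 at day 6), Jam2 (-0.54 and -0.72), Tbx3 (-0.57 and -0.63) and AK3L1 (-0.47 at day 6). Falls that were shallower or turned were those of Edn1 (0.76 at day 4, 2.65 at day 6), Abca14 (1.18 and 1.93), Ntn1 (1.34 at day 6), Gjc1 (0.92 at day 6), Klk1b26 (0.59 at day 6), Klf4 (0.56 at day 6) and Epha4 (0.46 at day 6). Bmp4 was deeper at day 4 (-0.72) and shallower at day 6 (0.99).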

How the results depend on the processing

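The direction of the 197 called genes named by the rule (192 under the stricter filter, which removed 5) was kept in the alternative settings except for Dcn without the filter (-0.11) and Selplg with the stricter filter (-0.0026), where another probe stood for the gene. A further probe on its own had the other sign for Acta2 (-0.073), Egln3 (-0.20), Ifitm1 (-0.037), Selplg (-0.0026) and Rps24 (-0.088 and -0.021), and none of these passed. Calls that the alternatives did not make numbered 41 in the day 2 arrays alone, 24 with median centring, 11 without the filter, 10 with the mean of all probes, 4 without background correction and 11 to 26 when 1 array was left out, and 129 genes were called in every setting and on every probe. The day 2 arrays alone called 862 genes (437 higher, 425 lower), and 1152 with the replicate block (597 higher). The replicate block in the 18-array model gave 2194 genes, all 1765 among them, ended no named call, and raised the genes whose effect was higher at day 4 than at day 2 to 527, against 337. Median centring left 470 lower genes at day 2, a split of 61.2% higher against 54.3%, and 135 genes with a lower effect at day 4, against 363. At least 2-fold higher and lower were 23 and 38 genes without background correction and 27 and 31 in the authors' deposited normalized table. Leaving out 1 array gave 1355 to 1792 called genes. The dim Esrrb probe gave -0.14. Dim probes near the detection floor limit the size of a fold change.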

Other observations

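Other probes named for sequences that are not mouse genes were also bright at day 2. DTT7PRIMER_ANTISENSE had raw intensities of 719, 1065 and 915 on the Esrrb shRNA arrays and 573, 684 and 1513 on the GFP shRNA arrays, which overlapped. JEREMYREITER_BGALACTOSIDASE_40 had 220, 213 and 251 in Esrrb shRNA cells and 263, 253 and 271 in GFP shRNA cells, with the control array brighter on every BeadChip. By day 6 the first was at 62.4 to 75.1 in Esrrb shRNA cells and 53.1 to 70.4 in GFP shRNA cells. What these probes read is known here only from their names. The EGFP and GFP probes were not detected on any array.

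Pop4, a subunit of RNase P and RNase MRP, was not named by the rule and is given because of 1 value. It had 11.71, 11.22 and 5.24 on the Esrrb shRNA arrays and 11.64, 11.44 and 11.59 on the GFP shRNA arrays. The third knockdown array stood more than 5 log2 units below the other 5, and the fitted change of -2.16 (SE 1.87, adjusted p = 0.524) did not pass.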
